A study of Mus musculus with 8 samples.

Results

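The 6 genes described here, Cd200, Adgrg6, Catip, Creb5, Rbfaos and Fam25c, were chosen by their fold changes in these same data, as strong rises of newly made RNA in dual-targeted H3.3 K122A mouse embryonic stem cells, out of 16896 genes listed in any of 4 tables of fold changes. K122A replaces lysine with alanine in the globular domain of the histone variant H3.3, which is encoded by H3f3a and H3f3b, and A and WT stand for the mutant and the unaltered allele. RNA was labelled with 500 nM 4-thiouridine for 5 min and the labelled fraction was sequenced (TT-seq), which measures recent synthesis rather than the stock of RNA. All 8 libraries came from the E14 embryonic stem cell line. The dual-targeted group held 3 libraries with 3 mutant alleles each, namely 2 clones that were A/A at H3f3a and WT/A at H3f3b (below, the clones) and 1 line that was WT/A at H3f3a and A/A at H3f3b (below, the third dual-targeted line). The single-targeted group held 2 libraries with 2 mutant alleles each, from a line that was A/A at H3f3a and WT/WT at H3f3b and a line that was WT/WT at H3f3a and A/A at H3f3b. The wildtype group held 3 libraries. The labels assign 1 library to each of the 5 mutant lines, so the spread within a mutant group mixes genotype, clone and library, and these cannot be told apart. No line carried mutant alleles at all 4 positions. Growth with LIF, or with LIF plus GSK3 and MEK inhibitors, is described in the labels, and which of these applied is not stated.

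The members come from unrelated families. CD200 is a membrane glycoprotein of the immunoglobulin family that quiets myeloid cells through its receptor. ADGRG6, also called GPR126, is an adhesion G protein-coupled receptor that raises cyclic AMP through Gs and is known for its part in Schwann cell myelination, with collagen IV, laminin-211 and the prion protein as ligands. CREB5 is a bZIP transcription factor of the CREB and ATF family that binds cyclic AMP response elements. CATIP is a partner of TTC17 in actin polymerization and cilium formation. Rbfaos is a long noncoding RNA read from the strand opposite to Rbfa, which encodes a maturation factor of the small subunit of the mitochondrial ribosome. Fam25c encodes a small protein that is little described.

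Promoter windows of RefSeq transcripts, from 250 bases before to 50 after the annotated start on build GRCm38.p6, matched 5 of the 6 members by symbol, as 6 windows of 300 bases. Those of Creb5, Adgrg6 and Fam25c are shown for 3 reasons. Creb5 is itself a factor of the CREB and ATF family, Adgrg6 encodes a receptor that raises cyclic AMP, and Fam25c was the member whose values departed most from the others. Capitals mark every match, on either strand, to the cyclic AMP response element TGACGTCA, its short form TGACG, the AP-1 site TGANTCA, the TATA box TATAAA or the E-box CACGTG. The windows lie at chr6:53287053-53287352 on the plus strand for Creb5, chr10:14544987-14545286 on the minus strand for Adgrg6 and chr14:34355344-34355643 on the minus strand for Fam25c.
Creb5: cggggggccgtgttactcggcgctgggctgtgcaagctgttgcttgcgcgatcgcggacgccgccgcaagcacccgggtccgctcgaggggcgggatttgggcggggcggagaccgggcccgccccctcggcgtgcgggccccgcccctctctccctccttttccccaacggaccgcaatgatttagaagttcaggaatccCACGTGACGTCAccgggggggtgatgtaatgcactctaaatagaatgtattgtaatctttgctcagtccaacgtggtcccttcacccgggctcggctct
Adgrg6: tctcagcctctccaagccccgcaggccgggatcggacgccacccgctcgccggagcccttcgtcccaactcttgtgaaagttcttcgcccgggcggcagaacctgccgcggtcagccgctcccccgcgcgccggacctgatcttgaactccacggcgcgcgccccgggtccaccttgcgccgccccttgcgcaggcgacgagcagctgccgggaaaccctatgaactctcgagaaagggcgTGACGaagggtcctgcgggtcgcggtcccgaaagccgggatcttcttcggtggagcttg
Fam25c: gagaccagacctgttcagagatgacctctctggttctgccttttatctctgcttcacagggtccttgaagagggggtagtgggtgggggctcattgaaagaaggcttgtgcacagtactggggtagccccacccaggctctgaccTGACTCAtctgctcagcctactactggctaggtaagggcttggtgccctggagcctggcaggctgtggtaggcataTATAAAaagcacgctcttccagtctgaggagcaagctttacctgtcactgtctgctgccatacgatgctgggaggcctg

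The Creb5 window held a complete cyclic AMP response element whose first base was at position -45 from the start, overlapped by an E-box from -49 and made of a short form on each strand. A complete element was found in 1.79% of the 32851 promoter windows in the reference, and an E-box in 7.15%. Adgrg6 held 1 short form at -9, a match present in 20.8% of windows. Fam25c held an AP-1 site at -105 and a TATA box at -29, present in 7.81% and 13.6% of windows. A second Creb5 window at chr6:53573124-53573423, for a start within the gene, held TGACTCA at -45, the Cd200 window held a short form at -200 on the reverse strand, and the Catip window held none of the 5 motifs. Base composition also differed between members: the windows of Creb5 and Adgrg6 were 64.7% and 69% G plus C with 31 and 38 CpG dinucleotides, whereas those of Catip and Fam25c held 2 CpG each, against a median of 52.7% and 7 CpG over all windows. The members therefore shared no motif of these 5 across all windows. A match is a string of letters and not a measured site.

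The tables give, for each gene, a mean normalized count over the libraries compared, a log2 fold change and its standard error (SE), and no value per library. Values per library can therefore not be given except those solved below for the third dual-targeted line, nor can overlap between groups, and every fold change below is a description, since these contrasts chose the members. The authors' deposited table of dual-targeted against wildtype cells called all 6 members higher at an adjusted p under 0.05, against a background of 10.8% of 16493 genes called higher and 10.1% called lower. The authors' deposited table of the clones against wildtype called 5 of 5 listed members higher, with 9.05% of all genes higher and 10.3% lower. The authors' deposited table of dual-targeted against single-targeted cells called 4 of 6 higher, with 4.37% of genes higher and 2.69% lower. The authors' deposited table of single-targeted against wildtype cells called 2 of the 4 members that had an adjusted p higher, with 1.49% of genes higher and 1.47% lower. No member was called lower in any of the 4 tables. The rule used these contrasts, and nothing is read from the shares.

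Among the 11557 genes with an adjusted p and a mean of 50 or more in the authors' deposited table of dual-targeted against wildtype cells, Cd200, Catip, Adgrg6, Creb5 and Rbfaos held ranks 1 to 5 by log2 fold change. Fam25c held rank 97, so it is among the largest rises only in a wide sense. Around the eighth place of that ranking stood Soga3 at 3.52 ± 0.29 and Socs3 at 3.32 ± 0.28 just inside, and Miat at 3.18 ± 0.26 and Adamts1 at 3.06 ± 0.53 just outside (log2 fold change ± SE, in the authors' deposited table). In the authors' deposited table of dual-targeted against single-targeted cells the order was different: Cd200 held rank 1 and Fam25c rank 3 of 11410 genes, ahead of Adgrg6 at 11, Creb5 at 72, Catip at 139 and Rbfaos at 4209. The last place follows from a deposited fold change of 0.08, while the log2 ratio of dual-targeted over single-targeted means solved from the authors' deposited tables, described next, was 1.29 for Rbfaos and 1.28 for Creb5.

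Group means on a scale of normalized counts were solved from the 4 deposited means, which cover overlapping sets of libraries. The tables were first rescaled over 11558 genes of mean 50 or more. The scales were set so that the median gene had the same solved mean in single-targeted cells, dual-targeted cells and the clones as in wildtype. That the median gene is unchanged in each mutant group is an assumption of this step and was not tested. The factors were 0.984, 1.06 and 0.957 for the tables of single-targeted and wildtype, dual-targeted and single-targeted, and clones and wildtype cells. These solved means carry no error, because the deposited tables hold none for them, and they are given for the 5 members listed in all 4 tables. Their signs matched the sign of the deposited fold change in 100% of the called genes of mean 50 or more, which numbered 380 to 2726 per table.

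Adgrg6 lies at chr10:14402583-14545659 on the minus strand of GRCm38, a span of 143 kb. Solved from the authors' deposited tables, its mean was 234 in the clones, 305 in the third dual-targeted line, 63.4 in single-targeted and 15.5 in wildtype cells. The receptor gene was thus high in both dual-targeted genotypes, 16.6-fold above wildtype, and intermediate in single-targeted cells, 4.08-fold above wildtype. Without rescaling of the tables these folds were 10.2 and 2.10. The authors' deposited tables gave it log2 fold changes against wildtype of 4.09 ± 0.39 in dual-targeted cells, 3.91 ± 0.45 in the clones and 1.71 ± 0.63 in single-targeted cells, and of 1.92 ± 0.34 for dual-targeted against single-targeted (± SE). All 4 contrasts were called, and Adgrg6 was the only solved member whose mean was higher in the third dual-targeted line than in the clones, at a ratio of clones to line of 0.766. One line and 2 clones give no test of that ratio.

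Creb5, at chr6:53287270-53700376 on the plus strand, spans 413 kb. Its solved mean, from the authors' deposited tables, was 235 in the clones, 151 in the third dual-targeted line, 85.1 in single-targeted and 13.7 in wildtype cells. The factor gene was stepped by group, 15.1-fold above wildtype in dual-targeted and 6.21-fold above wildtype in single-targeted cells. Without rescaling they were 9.16 and 3.44. In the authors' deposited tables its log2 fold changes were 3.83 ± 0.34 in dual-targeted cells, 4.00 ± 0.35 in the clones and 2.44 ± 0.46 in single-targeted cells against wildtype, and 1.13 ± 0.34 in dual-targeted against single-targeted cells. Each was called, and the step between wildtype and single-targeted cells was larger on the log2 scale than the step between single-targeted and dual-targeted cells.

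Catip, a 7.21 kb gene at chr1:74362108-74369321 on the plus strand, had solved means of 140 in the clones, 33.2 in the third dual-targeted line, 29.6 in single-targeted and 4.56 in wildtype cells, from the authors' deposited tables. The high values sat in the clones, 4.22-fold above the line (7.03-fold without rescaling), and the line lay close to the single-targeted mean. Without rescaling of the tables the solved order of these groups was reversed, at 20.1 in the line and 24.7 in single-targeted cells. The authors' deposited tables gave 4.31 ± 0.58 for dual-targeted against wildtype, 4.76 ± 0.52 for the clones against wildtype, 0.96 ± 1.53 for dual-targeted against single-targeted with an adjusted p of 0.0684, and 2.05 ± 0.90 for single-targeted against wildtype with a p of 8.38e-04 and no adjusted p. The step between single-targeted and dual-targeted cells was accordingly not called.

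Fam25c, at chr14:34351881-34355433 on the minus strand and 3.55 kb long, had a different profile. From the authors' deposited tables its solved mean was 189 in the clones, 116 in the third dual-targeted line, 28.0 in single-targeted and 47.4 in wildtype cells. Dual-targeted cells were 3.47-fold above wildtype, whereas single-targeted cells were at 0.591 of wildtype, so its group means were not graded by the number of mutant alleles. The authors' deposited tables gave 2.41 ± 0.48 in dual-targeted against single-targeted cells, and 1.62 ± 0.38 in dual-targeted cells, 1.81 ± 0.41 in the clones and -0.11 ± 0.21 in single-targeted cells against wildtype. The last of these had an adjusted p of 0.51, which leaves the lower mean of single-targeted cells within the error.

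Rbfaos was listed as a long noncoding RNA at chr18:80186239-80193569 on the plus strand. Its solved mean, from the authors' deposited tables, was 310 in the clones, 127 in the third dual-targeted line, 102 in single-targeted and 17.5 in wildtype cells. As with Catip, the clones were highest, 2.45-fold above the line. The authors' deposited tables gave 3.69 ± 0.39 for dual-targeted against wildtype and 4.02 ± 0.36 for the clones against wildtype. For dual-targeted against single-targeted and for single-targeted against wildtype the authors' deposited tables gave 0.08 ± 0.26 and 0.08 ± 0.20, with adjusted p of 0.419 and 0.191. The solved log2 ratios lay further from 0. That of single-targeted over wildtype was 2.54 (1.72 without rescaling), and with the deposited DESeq2 p of 0.0133 it corresponds to an SE of 1.03. That of dual-targeted over single-targeted was 1.29, and with the deposited DESeq2 p of 0.169 it corresponds to an SE of 0.94. Neither contrast was called, so whether these group means differ is not settled. In all 4 tables every called gene had a fold change smaller than its p and SE would give, a property of estimates shrunken toward 0, and no source used here names the estimator. For comparison, the same calculation for Creb5 gave an SE of 0.45 for single-targeted over wildtype, beside a deposited 0.46.

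**Figure D1:**
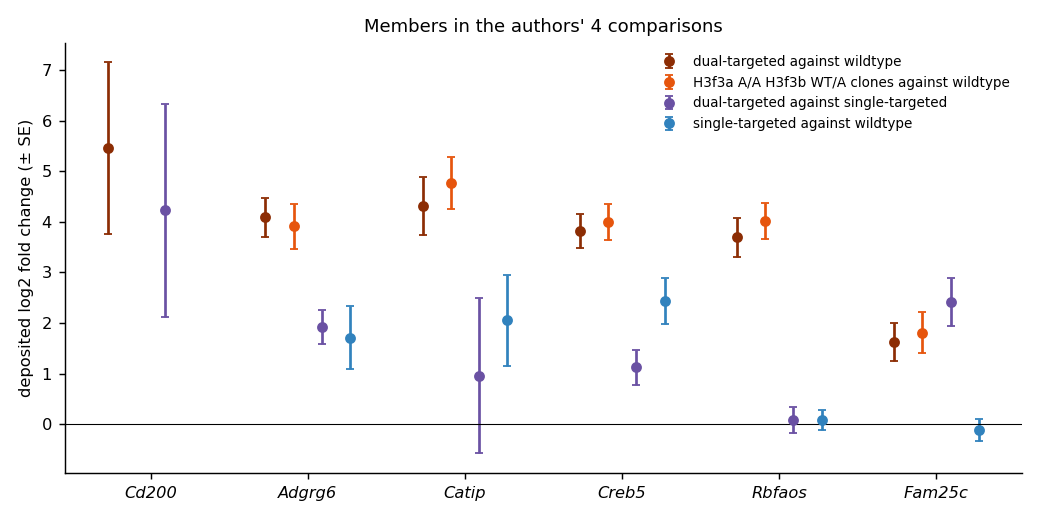
Points are the log2 fold changes of the 6 members in the authors' deposited tables and bars are ± SE; within each gene the order is dual-targeted and then clones against wildtype, dual-targeted over single-targeted, and single-targeted over wildtype. Cd200 is listed in only 2 of the tables, Rbfaos lies near 0 in both comparisons with single-targeted cells, and Fam25c is the member with a negative value, -0.11.

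**Figure D2:**
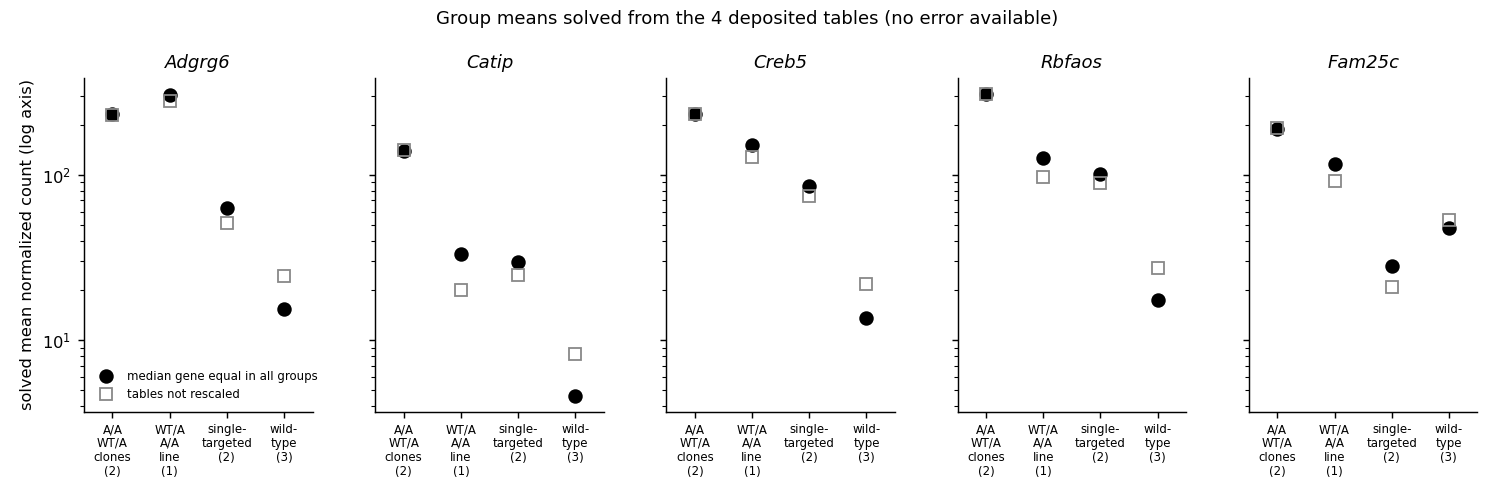
Mean normalized counts on a log axis, solved from the authors' deposited tables, for the clones, the third dual-targeted line (WT/A A/A), single-targeted and wildtype cells (number of libraries in brackets); filled circles use rescaled tables and open squares unscaled ones, and no error can be given. Adgrg6, Creb5 and Rbfaos keep the same order of groups in both, Catip has the line and single-targeted cells exchanged, and Fam25c is lowest in single-targeted cells.

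Cd200, at chr16:45382135-45409053 on the minus strand and 26.9 kb long, had the largest deposited rise of the 6 members and the largest SE. The authors' deposited tables gave log2 fold changes of 5.46 ± 1.69 for dual-targeted against wildtype and 4.23 ± 2.11 for dual-targeted against single-targeted, with adjusted p of 8.04e-04 and 0.0163. Its normalized counts summed to 343 over the 6 dual-targeted and wildtype libraries and to 325 over the 5 dual-targeted and single-targeted libraries, from the means in the authors' deposited tables. Split by the deposited fold changes, these sums gave 112 in dual-targeted and 2.54 in wildtype cells, and, in the other table, 105 in dual-targeted and 5.59 in single-targeted cells. On this split the gene was low in both single-targeted and wildtype cells.

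Cd200 was not listed in the authors' deposited tables of the clones against wildtype or of single-targeted against wildtype, the ones without the third dual-targeted line. The lowest total listed in either of them was 35.4 normalized counts. Of the genes listed in the other 3 tables, 39 were likewise missing from the clone table, and their solved wildtype totals had a median of 29.2 and a maximum of 59.1. The 59.1 is a total over the wildtype libraries alone, and the counts of the clones in those genes are left out of it. Suppose that Cd200 had the same number as its sum over the clones and wildtype. Then 284 of its 343 counts, or 82.8%, would have come from the third dual-targeted line. At the lowest listed total the share would be 89.7%. No source used here gives the criterion for listing a gene, so these shares are arithmetic and not bounds, and how far the fold change of Cd200 rests on that 1 library was not tested.

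Likeness between genes was measured as the Euclidean distance between their 4 deposited log2 fold changes, over 11557 genes, and describes 4 comparisons that share libraries. Soga3 at a distance of 0.777 and Socs3 at 0.998 lay nearest to Adgrg6. Socs3, an inhibitor of cytokine and LIF signalling, had 3.32 ± 0.28 for dual-targeted and 1.45 ± 0.33 for single-targeted against wildtype in the authors' deposited tables. Catip and Creb5 were nearest to each other, at 0.997, followed by Adgrg6 for Catip at 1.35 and 9330159F19Rik for Creb5 at 1.03. Stk31 at 0.950 and Nt5e at 1.60 were nearest to Rbfaos, Gm42449 at 0.291 and A930004D18Rik at 0.459 to Fam25c. The distances of Rbfaos use its deposited values of 0.08, whereas its solved log2 ratios were 3.83 for dual-targeted and 2.54 for single-targeted over wildtype, beside 3.92 and 2.64 for Creb5. Cd200 has no distance, being listed in 2 tables.

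Position was not used to choose the members. Within 500 kb of the 6 starts, 46 other genes had an adjusted p in the authors' deposited table of dual-targeted against wildtype cells, of which 9 were called higher and 3 lower, beside 10.8% and 10.1% of all genes. Their median log2 fold change was 0.11, against 0.01 over all genes. Called neighbours were found at 3 of the 6 members. Around Cd200 none of 4 and around Adgrg6 none of 2 neighbours was called, and Creb5 had no listed neighbour in its window. The nearest measured genes around Cd200 were Tagln3 at -0.13 ± 0.28 on its upstream side and Atg3 at 0.19 ± 0.21 on its downstream side, in the authors' deposited table.

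Around Catip, 4 of 21 neighbours were higher and 2 lower in the authors' deposited table of dual-targeted against wildtype cells. The higher ones were Arpc2, a subunit of the Arp2/3 actin nucleator, at 0.43 ± 0.18, Aamp at 0.59 ± 0.22, Tmbim1 at 0.47 ± 0.20 and Ctdsp1 at 0.71 ± 0.29, in the authors' deposited table. The lower ones were the focal adhesion gene Tns1 at -0.84 ± 0.22 and Cyp27a1, a sterol 27-hydroxylase, at -1.10 ± 0.83. All were smaller in size than the 4.31 of Catip.

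Around Rbfaos, 4 of 7 neighbours were higher in the authors' deposited table of dual-targeted against wildtype cells and none lower, with a median of 0.53. Rbfa itself, which overlaps Rbfaos by 1305 bases on the opposite strand, was higher by 0.87 ± 0.27 in dual-targeted and by 1.02 ± 0.29 in the clones against wildtype, in the authors' deposited tables. The others were Gm16286 at 0.53 ± 0.17, Txnl4a, a spliceosome component, at 0.56 ± 0.21 and Pqlc1 at 0.77 ± 0.25. No source used here says whether counting used the strand, so reads from the shared 1305 bases of Rbfa and Rbfaos cannot be told apart. The fold change of Rbfaos was the larger, at 3.69 beside 0.87 for Rbfa.

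Around Fam25c, 1 of 12 neighbours was higher and 1 lower in the authors' deposited table. The higher one was Mmrn2, an extracellular matrix gene of endothelium whose start lies 20.0 kb upstream of Fam25c, at 2.10 ± 0.38 in dual-targeted and 2.44 ± 0.35 in the clones against wildtype in the authors' deposited tables. Mmrn2 was called in single-targeted against wildtype cells as well, at 1.04 ± 0.50 with a deposited DESeq2 adjusted p of 0.0480, where Fam25c had -0.11 ± 0.21. The authors' deposited table gave Mmrn2 0.32 ± 0.41 for dual-targeted against single-targeted, where Fam25c had 2.41 ± 0.48. The difference between the neighbours' profiles was not tested. The lower one was Ldb3 at -1.16 ± 0.42. Over the same 500 kb windows, the authors' other 3 deposited tables gave these counts. For the clones against wildtype 8 of 41 neighbours were called higher and 2 lower, beside 9.05% and 10.3% of all genes. For dual-targeted against single-targeted 3 of 36 were higher and 0 lower, beside 4.37% and 2.69% of all genes. For single-targeted against wildtype 2 of 39 were higher and 0 lower, beside 1.49% and 1.47% of all genes.

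**Figure D3:**
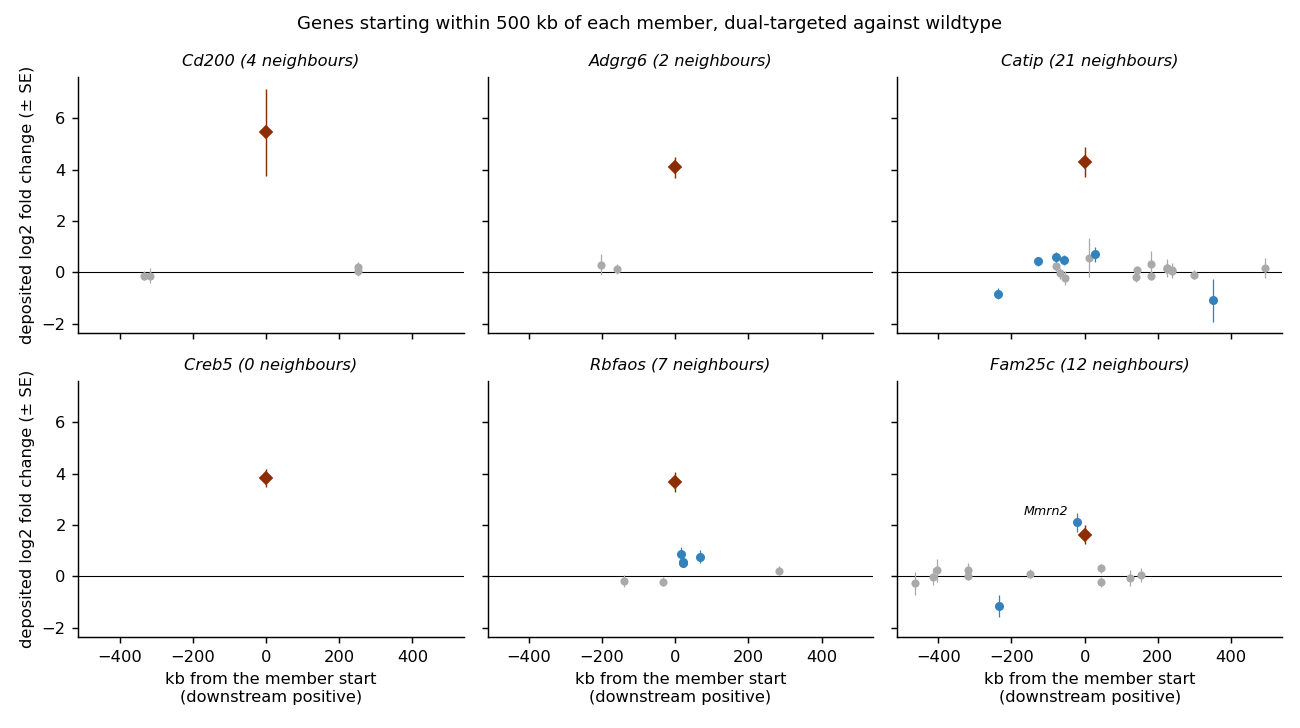
Log2 fold change ± SE in the authors' deposited table of dual-targeted against wildtype cells for each member (diamond) and the genes starting within 500 kb, by distance in kb from the start of the member with downstream positive; blue marks an adjusted p under 0.05 and grey the rest. The only neighbour as high as its member is Mmrn2 beside Fam25c, at 2.10.

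Lists of 187 other genes of the members' families and pathways, chosen with earlier results of these data known, held 146 genes with an adjusted p in the authors' deposited table of dual-targeted against wildtype cells. Of these, 21 were higher and 21 lower, beside 10.8% and 10.1% of all genes. The calls were thus even between the directions. The authors' deposited table of the clones against wildtype called 15 of these genes higher and 22 lower, beside 9.05% and 10.3% of all genes.

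Among CD200 receptors and related inhibitory surface ligands, 3 of 9 were higher and 3 lower, with a median log2 fold change of 0.07 in the authors' deposited table of dual-targeted against wildtype cells. The costimulatory ligand genes Cd80 at 1.98 ± 0.48 and Icosl at 0.75 ± 0.20 were higher, and Cd24a at -1.44 ± 0.24 and the phagocytosis inhibitor Cd47 at -1.35 ± 0.34 were lower. Among 17 other adhesion receptors in the authors' deposited table, 2 were higher and 3 lower with a median of -0.25. Adgrb1 was higher at 0.83 ± 0.25, and Adgrg5 at -2.76 ± 0.52, Adgre5 at -1.09 ± 0.21 and Adgrl1 at -0.71 ± 0.20 were lower. The ADGRG6 ligand genes gave 2 higher and 0 lower of 6 with a median of 0.13. Both were laminin chains, Lamb1 at 1.43 ± 0.21 and Lamc1 at 0.43 ± 0.18. The laminin chain Lama2, at -0.73 ± 1.12 with a mean of only 8.64 normalized counts, and Prnp at 0.19 ± 0.27 were not called.

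For cyclic AMP production, breakdown and effectors, 3 of 25 genes were higher and 6 lower, with a median of -0.21, in the authors' deposited table of dual-targeted against wildtype cells. Among them were the phosphodiesterase genes Pde4d at -0.97 ± 0.22 and Pde4c at -1.18 ± 0.30, the regulatory kinase subunit Prkar1a at 0.76 ± 0.19 and the cyclic AMP sensor Rapgef3 at 1.03 ± 0.32. Of 31 CREB, ATF and AP-1 factors and coactivators other than Creb5, 5 were higher and 6 lower with a median of -0.04 in the authors' deposited table. Crebrf at -1.02 ± 0.23, Creb3l2 at -1.50 ± 0.35 and Crebl2 at -0.83 ± 0.26 were lower, and Fosl1 was higher at 6.33 ± 2.62 with a mean of only 6.18 normalized counts. Known targets of cyclic AMP response elements gave 4 higher and 1 lower of 16 with a median of 0.21. Klf4, a pluripotency factor, stood at 1.08 ± 0.20, Btg2 at 1.10 ± 0.23 and Bdnf at 1.60 ± 0.62 in the authors' deposited table, while Pde4d, on this list too, was the lower one.

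Of 31 cilium assembly and CATIP partner genes, 1 was higher and 2 lower with a median of 0.02 in the authors' deposited table of dual-targeted against wildtype cells. They were Bbs2 at 0.67 ± 0.25, Ift140 at -0.46 ± 0.20 and Rfx3 at -0.61 ± 0.29. Of 14 genes for assembly of the mitochondrial small subunit, 2 were higher and 1 lower with a median of -0.01, namely Rbfa, Yars2 at 0.50 ± 0.20 and Mettl17 at -0.61 ± 0.27. On the list of Fam25c namesakes and neighbours by name, the 2 genes with an adjusted p were Glud1 and Shld2. Neither was called, and their median was 0.05. Mmrn2, the called neighbour described above, was not on that list.

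In the authors' deposited table of single-targeted against wildtype cells, 0 to 1 gene of each list was called in each direction, beside 1.49% and 1.47% of all genes. In the authors' deposited table of dual-targeted against single-targeted cells the CREB, ATF and AP-1 list had 2 higher and 1 lower, the response element targets 1 higher, and the other 7 lists none.

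**Figure D4:**
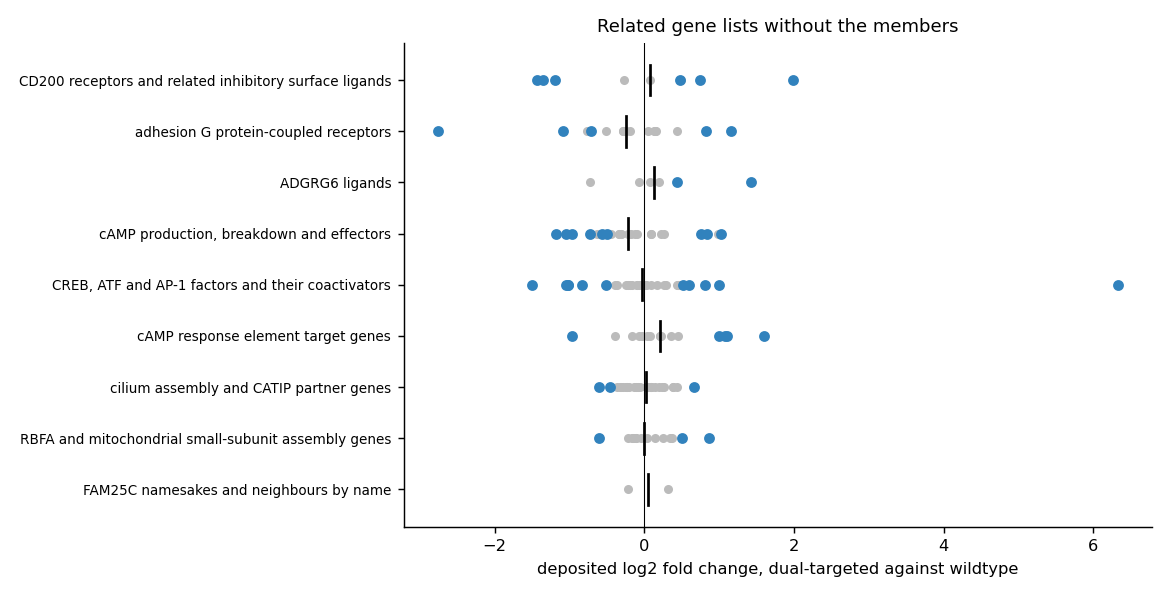
Each point is a gene of a list, members left out, at its log2 fold change in the authors' deposited table of dual-targeted against wildtype cells; blue marks an adjusted p under 0.05, grey the rest, and black bars the list median. Medians run between -0.25 and 0.21, and the far right point is Fosl1 at 6.33.

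All 10 embryonic stem cell markers were listed in the authors' deposited table of dual-targeted against wildtype cells, with mean normalized counts between 419 and 4211, and 7 were called higher and 0 lower with a median log2 fold change of 0.68. Of 8 neural crest and Schwann cell markers, the cells in which Adgrg6 is best known, 4 were listed with a summed mean of 457, 1 called higher and 1 lower, and Sox10 and Egr2 were among those not listed. Of 7 endothelial and blood markers, 2 were listed, Pecam1 at 681 and Tek at 60.2, with 0 higher and 1 lower, and Cdh5, Tie1, Ptprc, Tal1 and Gata1 were not listed. Of 11 markers of 2-cell-like cells, 2 were listed, both higher, with a summed mean of 38.5 and a median log2 fold change of 6.29, and neither had an adjusted p in the other 3 tables. The other lists had 3 to 5 genes listed, with 2 higher of 5 for neural cells, 1 of 3 for mesoderm, 1 of 4 for endoderm, 1 of 3 for trophectoderm and 0 of 3 for fibroblasts, and none lower, in the authors' deposited table. In bulk libraries a gene read in a few more cells and a gene read more strongly in each cell cannot be told apart, and the part of these marker changes in the members' values was not tested.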

How the data were processed

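Newly made RNA of 8 libraries was measured by TT-seq. Per the submitters' processing notes, the builds named are mm10 and GRCm38.p6 and the tools DESeq2, featureCounts, STAR, SAMtools and deepTools; no source used here gives the strand use, the fold change estimator or the criterion for listing a gene. The authors deposited 4 tables of comparisons, per the file headers with a mean normalized count (a signal averaged over libraries), a log2 fold change, its standard error (recorded here as a score), a p-value and an adjusted p-value. They hold 16149 to 16498 genes, and their mean counts sum to 1.08e+07 to 1.26e+07. The wildtype libraries are called biological replicates in the labels, and each mutant line gave 1 library. No column of values per library was present (0 unused), so the depth per library is unknown, no count test could be fitted, and no interval or spread over libraries can be given.

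Members and lists were chosen with earlier results of these data known. Genes named beside the members were the 2 nearest by fold change pattern, called or nearest genes within 500 kb, the 2 just inside and just outside the 8 largest rises, and up to 4 genes of each list by smallest adjusted p. Calls used the authors' adjusted p under 0.05. Group means were solved from the deposited means with the known numbers of libraries. On simulated data for 16498 genes, of which 200 were changed, the median log2 ratio was recovered within 0.031. That value describes a median, and the error for a single gene was not tested. The other genes were left unchanged there, so the assumption of an unchanged median gene was not tested either. Positions are from GENCODE M21, and promoters and the position of Rbfaos from RefSeq. A unique GENCODE gene was found for 98.4% of symbols. The scripts ran in Python 3.11.15 with pandas 2.3.3, numpy 2.4.6, matplotlib 3.10.9 and scipy 1.17.1.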

Additional observations from a re-analysis of the deposited data

Results flagged for a closer look

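The authors' deposited table of dual-targeted against single-targeted cells called 4 of 6 members higher, beside 4.37% of all genes. For Cd200 no effect of single targeting against wildtype cells was listed. The log2 fold changes of that comparison in the authors' deposited table were 4.23 for Cd200, 1.92 for Adgrg6, 1.13 for Creb5 and 2.41 for Fam25c. These values were among those the members were chosen by, so they are a description. The value of Cd200 includes the third dual-targeted line, without which the gene was not listed. For Fam25c the solved mean of single-targeted cells was below that of wildtype.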

How the results depend on the processing

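Of 93 values recomputed under alternatives, 68 stayed within the limits set for the same result, 25 moved and none reversed. The ratio of the third dual-targeted line to single-targeted cells was not among these values. For Catip the order of these groups did reverse without rescaling, as described above. Solving the group means without rescaling the tables moved most. The log2 ratio of dual-targeted over wildtype cells became 3.34 for Adgrg6, 3.61 for Catip, 3.20 for Creb5 and 3.14 for Rbfaos. That of single-targeted over wildtype cells became 1.07 for Adgrg6, 1.58 for Catip, 1.78 for Creb5, 1.72 for Rbfaos and -1.34 for Fam25c. That of the clones over the third dual-targeted line became 2.81 for Catip and 1.68 for Rbfaos. The rescaling itself is the only step that differs. Wildtype means were also taken from the table of dual-targeted and wildtype cells alone, an alternative chosen after seeing the data. They were 15.2 for Adgrg6, 5.22 for Catip, 14.5 for Creb5 and 19.1 for Rbfaos, nearer to the rescaled means than to the unscaled ones. For Fam25c the value was 52.0, nearer to the unscaled 53.1 than to the rescaled 47.4. At an adjusted p under 0.01, 1 member was higher in single-targeted against wildtype cells, and 12 genes of the 9 lists were higher and 13 lower in dual-targeted against wildtype cells. Among neighbours with a mean of 50 or more, 1 was lower. With no minimum on the mean, the ranks by rise in dual-targeted against wildtype cells were 7 for Cd200, 13 for Catip, 14 for Adgrg6, 17 for Creb5, 19 for Rbfaos and 233 for Fam25c.

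Without the third dual-targeted line, which the clone comparison leaves out, all 5 listed members were still called higher; Cd200 has no value there. Other libraries could not be left out because the tables hold no values per library. No paired analysis was possible because the tables hold no values per library and the mutant lines carry no replicate shared with wildtype. Depth per library is unknown. At like mean normalized counts of 57.2 and 54.5 over 6 libraries, the SE of the fold change was 1.69 for Cd200 and 0.58 for Catip in the authors' deposited table.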

Other observations

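Genes listed as Cd200 was, in both tables that hold the third dual-targeted line and in neither other, numbered 140. In the authors' deposited table of dual-targeted against wildtype cells, 74 of them were called higher and 0 lower, beside 10.8% and 10.1% of all genes. Of the 74, 5 were called higher in dual-targeted against single-targeted cells. The 4.37% of all genes called higher there is a share of the 13141 genes with an adjusted p. How many of the 74 had one was not counted, so 5 of 74 cannot be set beside that share. Only 15 of the 74 had a mean of 20 or more over the dual-targeted and wildtype libraries. The 140 genes were picked by which tables list them, both of which hold the dual-targeted lines, so the choice favours genes high in those lines. These counts are therefore a description with no test. Besides Cd200, chosen after their values were seen, they included Samd5 at 4.59 ± 0.74, the neurofilament gene Nefm at 3.60 ± 0.62, the endothelin gene Edn1 at 3.47 ± 0.62 and Insyn2a at 3.41 ± 0.52 (log2 fold change ± SE in the authors' deposited table of dual-targeted against wildtype cells).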
